A study of Mus musculus with 48 samples.

Results

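Cholesterol synthesis and its control by the SREBP transcription factors are described here through 27 mouse genes, which were taken by gene symbol from a count table of 55486 gene identifiers. All 27 were found. The list holds 7 genes of the route from acetyl-CoA to the isoprenoids, 12 genes of the route from squalene synthesis to cholesterol, 5 SREBP factors and regulators, and 3 genes of sterol transport, storage and export. The genes are a list of known function, not a set picked by a threshold in these samples. The list was chosen with earlier results of these data known.

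The study used bulk RNA sequencing to ask what loss of QPCTL, a glutaminyl cyclase of the Golgi that modifies the first residue of some proteins, changes in tumours and lymphoid organs. CD45-negative tumour cells (12 libraries) were live cells sorted from B16F10 melanomas 14 days after inoculation. B16F10 is a transplantable mouse melanoma line. QPCTL-KO mice had received QPCTL-KO tumour cells and wild-type littermates had received QPCTL-WT tumour cells, so host and tumour genotype changed together and cannot be told apart. Bone marrow (8 libraries) and spleen (8 libraries) were whole organs, snap-frozen from mice aged 10 to 15 weeks that had received no tumour. All mice came from the strain given as QPCTL-KO C57/Bl6JR, and carried the QPCTL-KO allele on both chromosomes or were wild-type littermates. By the labels the tumour group holds 6 samples of each genotype and each organ holds 4 of each. The count columns name a tissue and a running number but no genotype, so each tissue is described over both genotypes together. The genotype comparison is given only from the authors' deposited table. Another 20 columns, from lymph nodes, did not show whether they were baseline or tumour-bearing and were not used here.

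Cholesterol is built from acetyl-CoA. Hmgcs1 acts on the way to mevalonate, later enzymes make farnesyl units, Fdft1 joins these units to squalene, and Sqle, Lss and a chain of sterol-modifying enzymes finish the ring system. When sterols are scarce in the endoplasmic reticulum, Scap carries the SREBP precursors to the Golgi, where they are cut into active transcription factors. Insig1 and Insig2 hold Scap back when sterols are plentiful. SREBP2, from Srebf2, acts mainly on cholesterol genes, and the main product of Srebf1 in most tissues acts mainly on fatty acid genes.

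Promoters of 3 members are shown because these genes were higher in CD45-negative tumour cells than in both organs and their products stand at the start of the pathway, within the sterol chain and at its brake. Each run covers 250 bases before to 50 bases after the annotated start, from RefSeq on GRCm38.p6, written 5′ to 3′ on the gene's strand. Capitals mark matches, on either strand, to CACNCCAC, a core of the sterol regulatory element, and to CCAAT, the box bound by NF-Y.
Hmgcs1: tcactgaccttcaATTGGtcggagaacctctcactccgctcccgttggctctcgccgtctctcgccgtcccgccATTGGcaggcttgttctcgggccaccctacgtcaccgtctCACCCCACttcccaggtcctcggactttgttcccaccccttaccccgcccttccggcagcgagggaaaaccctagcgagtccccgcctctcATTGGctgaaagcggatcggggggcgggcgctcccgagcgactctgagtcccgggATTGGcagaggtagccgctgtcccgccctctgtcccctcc
Insig1: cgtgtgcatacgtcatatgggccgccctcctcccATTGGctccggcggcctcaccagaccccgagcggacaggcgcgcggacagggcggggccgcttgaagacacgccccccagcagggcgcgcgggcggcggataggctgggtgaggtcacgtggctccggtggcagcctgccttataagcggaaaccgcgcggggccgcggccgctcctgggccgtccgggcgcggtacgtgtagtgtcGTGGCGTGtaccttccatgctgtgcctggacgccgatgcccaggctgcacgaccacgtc
Cyp51: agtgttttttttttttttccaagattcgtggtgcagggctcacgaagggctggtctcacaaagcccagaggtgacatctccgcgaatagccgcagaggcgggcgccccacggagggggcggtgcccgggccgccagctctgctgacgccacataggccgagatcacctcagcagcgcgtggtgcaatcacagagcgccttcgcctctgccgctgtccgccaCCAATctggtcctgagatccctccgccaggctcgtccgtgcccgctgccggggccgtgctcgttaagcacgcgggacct
The Hmgcs1 window lies at chr13:119690101-119690400 on the plus strand, the Insig1 window at chr5:28071162-28071461 on the plus strand and the Cyp51 window at chr5:4104648-4104947 on the minus strand. Hmgcs1 had 1 match to CACNCCAC and 4 matches to CCAAT, Insig1 had 1 of each, and Cyp51 had 1 match to CCAAT and 0 to CACNCCAC. No matches overlapped. Of the 27 members, 23 had promoter windows, 31 in all. CACNCCAC was found in 3 of the 31 windows, those of Acat2, Hmgcs1 and Insig1, against 6.24% of all 32851 windows of this length. CCAAT was found in 21 of the 31 windows, against 37.4% of all windows. The members with a CCAAT match were 20 of 23, against 41.1% of 27025 genes. Those without it were Abca1, Acat2 and Scap. A match describes letters in this window and is no measured binding site.

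The libraries held few counts for a gene-by-gene reading. Total counts ran from 54117 to 510363 in CD45-negative tumour cells, from 227240 to 637985 in bone marrow and from 219229 to 626316 in spleen, or 0.301% to 3.54% of the average of 18 M reads per sample that the labels give. The labels name a strand-specific kit, and the strand setting of the counting is not given in the sources used here. mt-Nd6, encoded on the light strand of the mitochondrial genome, had more counts than the median of 6 heavy-strand mitochondrial genes in 28 of 28 libraries, by 7.27 to 49.4 times. The part of the strand setting in this ratio and in the low totals was not tested. Ptprc, which encodes CD45, and Laptm5 had 0 counts in all 12 tumour libraries, and the summed melanoma and pigment markers ran from 2220 to 5790 CPM (counts per 1 M counts) there, against 37.1 to 95.2 CPM in bone marrow and 30.1 to 338 CPM in spleen. All 5 B-cell markers had 0 counts in the tumour libraries. The 4 leukocyte markers summed to 0 to 24.1 CPM there, 985 to 1980 CPM in bone marrow and 340 to 1760 CPM in spleen. The 6 macrophage markers summed to 275 to 692 CPM in tumour cells, 275 to 488 CPM in bone marrow and 555 to 985 CPM in spleen. Of these 6, C1qb, Adgre1 and Spic had 0 counts in all tumour libraries. Without a filter on low counts, 5 of the 6 were lower in tumour cells than in bone marrow and 1 was higher. Against spleen 5 were lower and 0 higher, all at adjusted p below 0.05. Of all genes, 22.8% were lower at that threshold against bone marrow and 20.7% against spleen. The higher marker, Csf1r, had a log2 fold change with the filter of 0.45 in tumour cells over bone marrow and -0.37 over spleen. Fibroblast markers summed to 17.7 to 1970 CPM in the tumour libraries, a wide range. Granule genes of neutrophils and their precursors summed to 14700 to 34400 CPM in bone marrow and to 34.4 to 1960 CPM in spleen. Spleen libraries 5 and 6 stood apart by erythroid markers (5580 and 5640 CPM, against 149 to 1340 CPM in the other 6), and spleen library 8 correlated least with its group. Tumour library 4 had the fewest counts and is called the shallowest below. Qpctl, the targeted gene, had 1 to 6 counts per tumour library, 4 to 19 per bone marrow library and 2 to 16 per spleen library, and without a genotype on the columns it does not check the labels.

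Levels are CPM scaled by the trimmed mean of M-values (TMM). Fold changes come from edgeR's quasi-likelihood test, with a standard error (SE) implied by its F statistic and p-values adjusted over all genes tested, and a gene is called at adjusted p below 0.05. A filter on low counts left 9 members in the fit of CD45-negative tumour cells over bone marrow, and 5 members in each of the other fits. A fit without the filter covers all 27. A member that passes the filter through only its higher group had to differ, so the members that passed are not a sample of the list. In the fit over bone marrow, Cyp51, Insig1 and Srebf1 passed mainly through the tumour cells, and Mvd and Lbr mainly through bone marrow. In the fit of tumour cells over spleen, Cyp51 and Insig1 passed mainly through the tumour cells. For these members the values without the filter are given as well. Only 5 members had a median of at least 10 counts in CD45-negative tumour cells, 6 in bone marrow and 5 in spleen, while 15, 18 and 21 had a median below 5 in these groups.

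Members of the list did not move as a block between CD45-negative tumour cells and bone marrow. With all 27 tested, 11 were higher and 3 lower in the tumour cells, where 18.8% and 22.8% of all 22509 genes were called higher and lower. The 11 were Hmgcs1, Acat2, Sqle, Lss, Cyp51, Msmo1, Nsdhl, Dhcr7, Insig1, Insig2 and Srebf1, and the 3 were Mvd, Fdft1 and Lbr. The median log2 fold change was 0.82 over the members and -0.07 over all genes. With the filter, 4 of 9 members were higher and 3 lower, against 34.9% and 38.4% of 4585 genes. At least 2-fold changes were called for 3 higher and 3 lower members, against 21.6% and 25.4% of genes. The tumour libraries came from sorted cells and the organs were frozen whole, so tissue, sorting and tumour cannot be told apart in this comparison. In bulk RNA, fewer cells of a type and less RNA per cell cannot be told apart either.

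Against spleen the same direction counts were 10 higher and 4 lower of 27, with 14.3% and 20.7% of 23186 genes called higher and lower. The 10 were Hmgcs1, Sqle, Lss, Cyp51, Msmo1, Nsdhl, Dhcr7, Insig1, Srebf1 and Soat1, and the 4 were Mvd, Fdft1, Lbr and Abca1. The member median was 0.74 and the median of all genes -0.20 on the log2 scale. With the filter, 3 of 5 members were higher and 1 lower, against 31.0% and 33.2% of 3879 genes, and the same members passed a 2-fold change, against 20.3% and 21.7% of genes. Without the 3 spleen libraries that stood apart, the filter let 10 members through. Of these, 5 were higher and 3 lower, where 1586 and 1696 of 4826 genes were called higher and lower. The fit without a filter again gave 10 and 4 of 27, where 2975 and 5374 of 22690 genes were called. Both sets of fold changes use the same tumour libraries, so they are given side by side and not as support for each other.

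**Figure D1:**
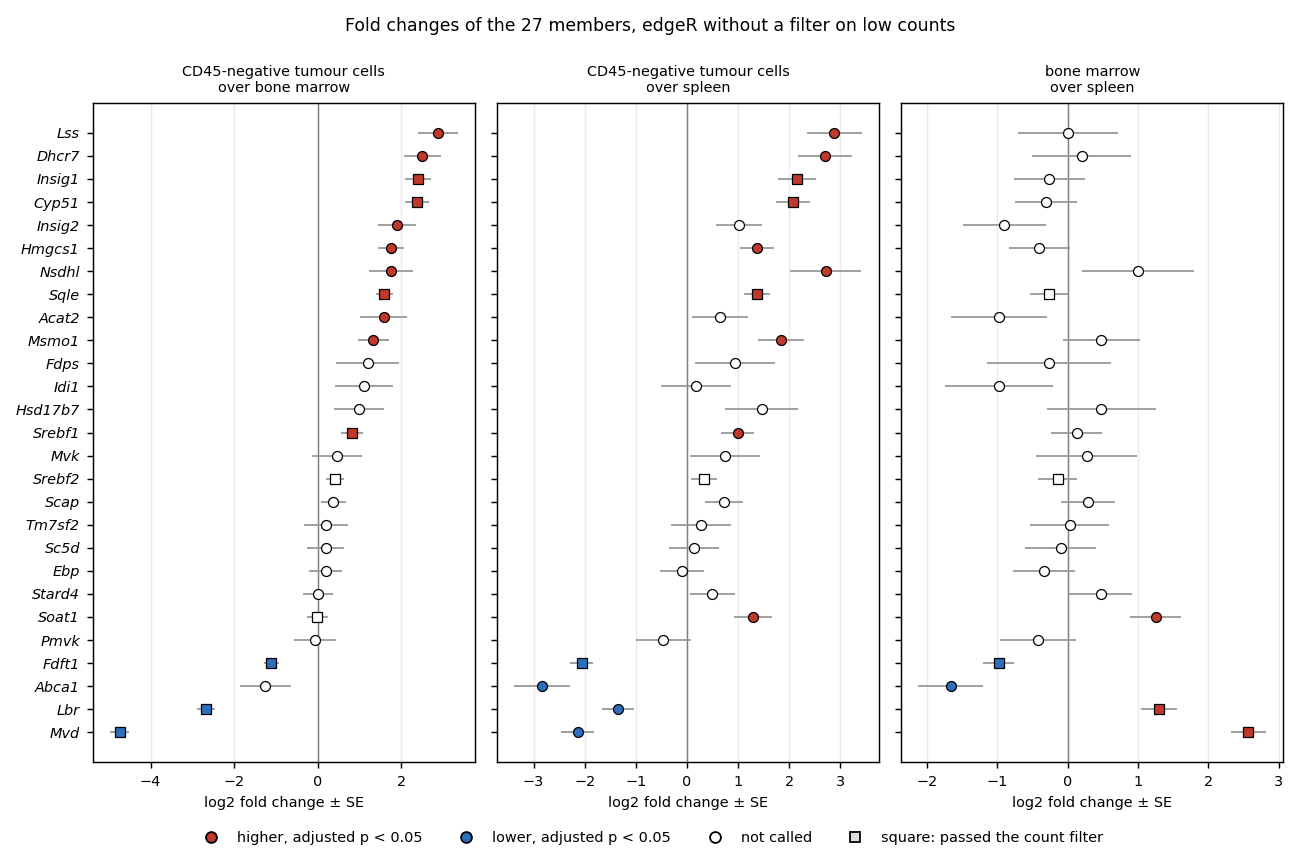
Log2 fold change with SE of each of the 27 members in the 3 comparisons, from edgeR without a filter on low counts; red and blue mark members called higher and lower, white marks members not called, and squares mark members that also passed the filter. 11 members are red in the left panel, 10 in the middle panel and 3 in the right panel.

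Summed over the 27 members, the level ran from 514 to 896 CPM with a median of 723 in CD45-negative tumour cells, from 929 to 1160 CPM with a median of 983 in bone marrow, and from 866 to 1340 CPM with a median of 972 in spleen. All 12 tumour libraries lay under all 8 bone marrow libraries, and the highest of them, at 896 CPM, overlapped the spleen range. The sum is carried by few genes. Per kb of exon, Fdft1 and Sqle led in tumour cells with means of 32.0 and 24.9 CPM per kb. Mvd, Fdft1 and Lbr led in bone marrow with 187, 69.2 and 25.5 CPM per kb. Fdft1 led in spleen with 145 CPM per kb, followed by Mvd with 33.6 and Lbr with 11.2. Fdps, which makes farnesyl pyrophosphate, was near the bottom in all 3 groups, with 0.398 CPM per kb in tumour cells, 0.10 in bone marrow and 0.141 in spleen.

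**Figure D2:**
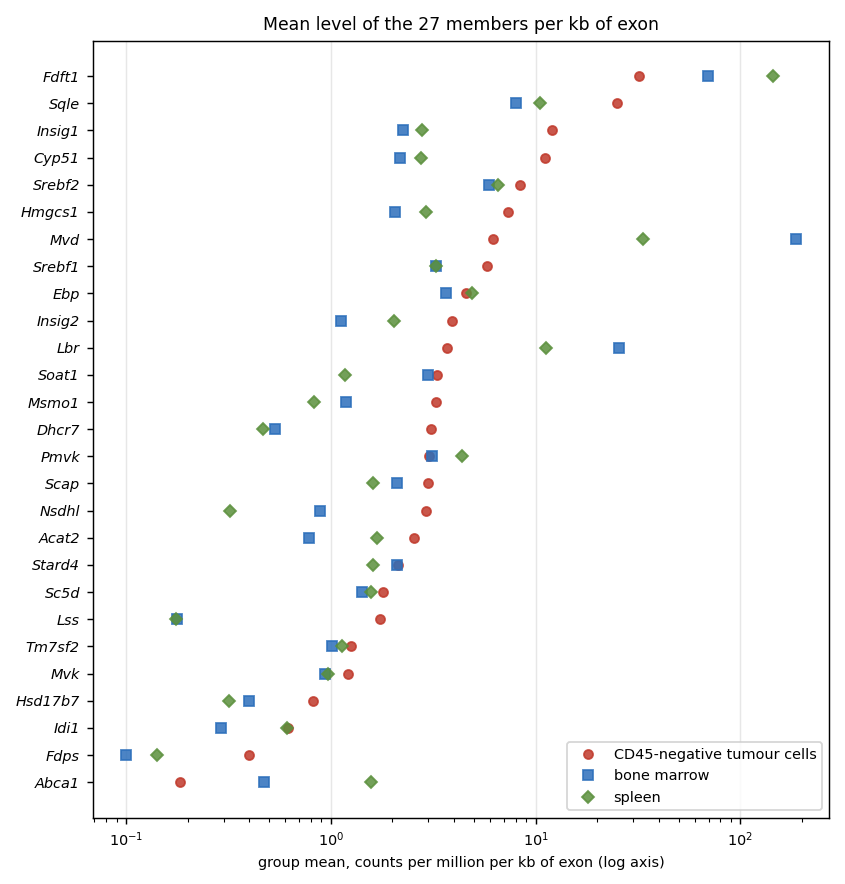
Mean level of each member in CPM per kb of exon on a log axis, with circles for CD45-negative tumour cells, squares for bone marrow and diamonds for spleen, ordered by the tumour mean. Mvd and Lbr sit far to the right in bone marrow (187 and 25.5), against 6.17 and 3.71 in tumour cells, while for Sqle, Insig1 and Cyp51 the tumour circle is the rightmost of the 3 symbols.

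Some members share bases with a gene on the other strand, which was counted beside them. Exons of another gene lie on the opposite strand over part of 8 members (Hmgcs1, Idi1, Fdft1, Lss, Cyp51, Lbr, Srebf1 and Scap), by 109 to 985 bases in GENCODE M21 on GRCm38, and 19 members have none. The opposite gene often had more counts than the member. Gm48342, opposite Hmgcs1 over 557 bases, had 4229 counts in CD45-negative tumour cells, 993 in bone marrow and 751 in spleen, or 32.8, 26.8 and 19.8 times those of Hmgcs1. Dnah14, opposite Lbr over 440 bases, had 22.1, 31.3 and 49.3 times the counts of Lbr in the same groups. For Fdft1 the opposite gene Ctsb had fewer counts than the member, at 0.788, 0.343 and 0.363 times. In the fits without a filter, the opposite gene had the same sign as the member for 7 of the 8 pairs against bone marrow, with Fdft1 (-1.11, Ctsb 0.10) as the exception, and for all 8 against spleen. Of the 19 members without opposite exons, 7 were higher and 1 lower in tumour cells than in bone marrow, against 14.7% and 21.6% of 15125 genes without them. Against spleen 6 were higher and 2 lower, against 10.8% and 19.1% of 15623 such genes. Whether the counted strand shaped these values was not tested.

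**Figure D3:**
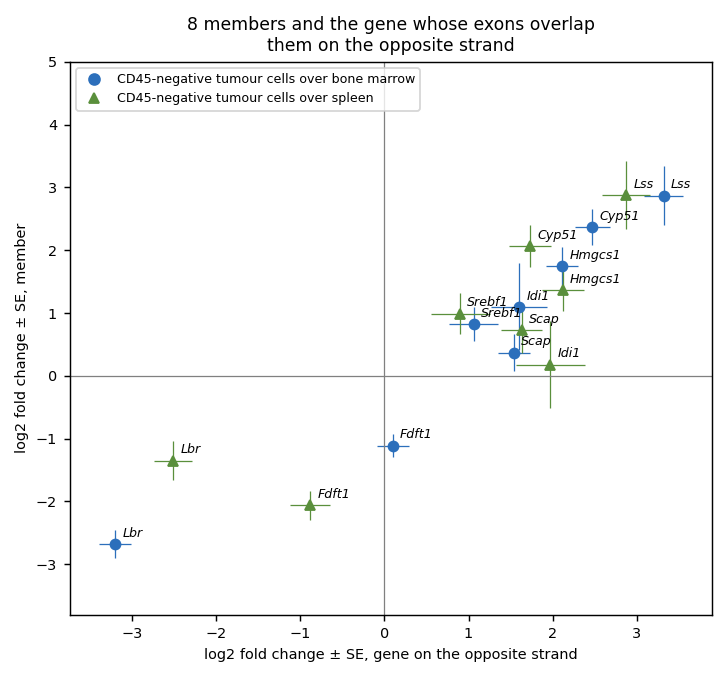
Log2 fold change with SE of 8 members (vertical) against that of the gene whose exons overlap them on the opposite strand (horizontal), with circles for CD45-negative tumour cells over bone marrow and triangles for the same cells over spleen. Lss, Cyp51 and Hmgcs1 lie with their opposite genes in the upper right and Lbr lies with Dnah14 in the lower left.

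In the first part of the pathway, from acetyl-CoA to the isoprenoids, 2 of 7 members were higher and 1 was lower in tumour cells than in bone marrow, and 1 was higher and 1 lower than in spleen, all without the filter. These counts were near the shares of all genes called, 18.8% higher and 22.8% lower against bone marrow and 14.3% and 20.7% against spleen. Hmgcs1, which makes HMG-CoA, had a lowest, median and highest level of 11.8, 35.2 and 58.3 CPM in CD45-negative tumour cells, against 0, 10.4 and 19.4 CPM in bone marrow and 7.84, 10.7 and 23.5 CPM in spleen. The tumour libraries were mostly above both organs, and the ranges overlapped. Without the filter its log2 fold change was 1.75 (SE 0.30, adjusted p = 3.31e-08) over bone marrow and 1.37 (SE 0.34, adjusted p = 0.000453) over spleen.

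Mvd (chr8:122433601-122443422, minus strand, GRCm38), the decarboxylase that makes isopentenyl pyrophosphate, had the largest fold change of any member in the fits with the filter. Its lowest, median and highest levels were 0, 10.0 and 26.4 CPM in tumour cells, against 272, 340 and 417 CPM in bone marrow and 12.9, 57.9 and 138 CPM in spleen. No bone marrow library overlapped either other group, and the lowest spleen library lay within the tumour range. Mvd fell by 4.78 on the log2 scale (SE 0.22, adjusted p = 3.98e-21) in tumour cells relative to bone marrow, and its log2 fold change was 2.53 (SE 0.27, adjusted p = 1.19e-07) in bone marrow over spleen. Without the filter, tumour cells over bone marrow gave -4.74 (SE 0.23, adjusted p = 3.02e-94) for Mvd. Cyba, a subunit of the phagocyte NADPH oxidase, neighbours Mvd on the same strand with no shared exon. It had a median of 10.8 CPM in tumour cells, 197 CPM in bone marrow and 132 CPM in spleen, and it is named because it was seen to move with Mvd. Its part in the counts of Mvd was not tested.

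Acat2, a cytosolic thiolase, was higher in tumour cells than in bone marrow without the filter (1.57, SE 0.57, adjusted p = 0.0153) at a median of 2 counts and 1 count, and missed the threshold against spleen (0.64, adjusted p = 0.368). Mvk and Pmvk, the kinases that act on mevalonate, had medians of 1 to 3 counts, apart from Mvk with 0 in spleen, and were called in no comparison. Idi1 and Fdps had medians of 0 to 0.5 counts in every group and were called in no comparison either, which does not show that their levels were alike.

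In squalene and sterol synthesis, 6 of 12 members were higher and 2 lower in tumour cells in each of the comparisons, with bone marrow and with spleen, without the filter. The shares of all genes called higher and lower were 18.8% and 22.8% against bone marrow and 14.3% and 20.7% against spleen. Fdft1 (chr14:63145150-63179578, minus strand), squalene synthase, was lower in tumour cells. Its levels were 30.5, 120 and 220 CPM there (lowest, median, highest), against 226, 284 and 363 CPM in bone marrow and 451, 583 and 958 CPM in spleen. The 3 groups did not overlap in any pair, and the order was tumour cells, bone marrow, spleen from low to high. Fdft1 fell by 1.14 on the log2 scale (SE 0.17, adjusted p = 1.09e-07) relative to bone marrow and by 2.31 (SE 0.20, adjusted p = 6.25e-11) relative to spleen. In bone marrow it fell by 1.04 (SE 0.17, adjusted p = 3.91e-05) relative to spleen. Ctsb, opposite Fdft1 over 774 bases, had -1.05 (SE 0.26) in bone marrow over spleen with the filter. In tumour cells Ctsb had 0.07 (SE 0.21) over bone marrow and -1.11 (SE 0.25) over spleen. The part of Ctsb in the counts of Fdft1 was not tested.

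Sqle (chr15:59315077-59331192, plus strand), squalene epoxidase and a rate-setting enzyme of the sterol branch, went the other way. Its levels were 96.7, 135 and 187 CPM in tumour cells, against 32.1, 44.5 and 53.5 CPM in bone marrow and 36.0, 54.5 and 97.5 CPM in spleen. Every tumour library was above every bone marrow library, and the lowest tumour library lay just under the highest spleen library. The log2 fold change was 1.56 (SE 0.17, adjusted p = 1.13e-10) over bone marrow and 1.12 (SE 0.19, adjusted p = 9.81e-06) over spleen. Sqle has no exon of another gene on its opposite strand. Bone marrow and spleen did not differ beyond their spread (-0.30, SE 0.22, adjusted p = 0.295).

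Cyp51, the sterol demethylase, was higher in every tumour library than in every library of either organ. Its levels were 23.6, 50.3 and 72.4 CPM in tumour cells, against 4.53, 7.24 and 21.4 CPM in bone marrow and 5.23, 12.1 and 19.9 CPM in spleen. With the filter the log2 fold change was 2.34 (SE 0.27, adjusted p = 8.83e-10) over bone marrow and 1.83 (SE 0.26, adjusted p = 6.35e-07) over spleen. Without it the values were 2.37 (SE 0.28, adjusted p = 8.94e-16) and 2.07 (SE 0.33, adjusted p = 1.4e-08). Akap9, opposite Cyp51 over 166 bases, had 2.43 (SE 0.17, adjusted p = 2.14e-15) and 1.47 (SE 0.16, adjusted p = 8.05e-09) in the fits with the filter.

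Lbr (chr1:181815335-181843046, minus strand), the lamin B receptor, which is also a sterol reductase, was highest in bone marrow. Its levels were 0, 18.6 and 42.1 CPM in tumour cells, against 77.5, 128 and 155 CPM in bone marrow and 22.9, 40.1 and 146 CPM in spleen. Tumour cells and bone marrow did not overlap, and spleen library 6, at 146 CPM, lay among the bone marrow libraries. Lbr fell by 2.71 (SE 0.25, adjusted p = 2.28e-12) in tumour cells relative to bone marrow, and had 1.25 (SE 0.31, adjusted p = 0.00235) in bone marrow over spleen. Without the filter, tumour cells over bone marrow gave -2.68 (SE 0.22, adjusted p = 2.71e-31) for Lbr. Proliferation markers summed to 290 to 976 CPM in tumour cells, 952 to 1410 CPM in bone marrow and 63.1 to 3630 CPM in spleen, and their part in the Lbr values was not tested.

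Dhcr7, the reductase of the final step, had 5.47, 18.2 and 32.8 CPM in tumour cells, against 0, 3.28 and 4.81 CPM in bone marrow and 0, 1.31 and 9.94 CPM in spleen. The tumour and bone marrow libraries did not overlap, although medians were 6, 1 and 0.5 counts in the 3 groups. Without the filter its log2 fold change was 2.5 (SE 0.44, adjusted p = 8.33e-08) over bone marrow and 2.70 (SE 0.53, adjusted p = 3.95e-06) over spleen. Lss, lanosterol synthase, had a median of 14.5 CPM in tumour cells and of 0 in both organs, where 5 of 8 libraries each had 0 counts. Its log2 fold change was 2.87 (SE 0.47) over bone marrow and 2.88 (SE 0.54) over spleen. Msmo1, the sterol methyl oxidase, and Nsdhl, the dehydrogenase that follows it, were also higher, by 1.33 (SE 0.36) and 1.75 (SE 0.53) over bone marrow and by 1.83 (SE 0.45) and 2.71 (SE 0.69) over spleen. Nsdhl rested on 33 counts in all tumour libraries, against 9 in bone marrow and 3 in spleen. Tm7sf2, Hsd17b7, Ebp and Sc5d, which carry out other sterol steps, were called in no comparison, with log2 fold changes of -0.10 to 1.46 in the tumour comparisons.

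**Figure D4:**
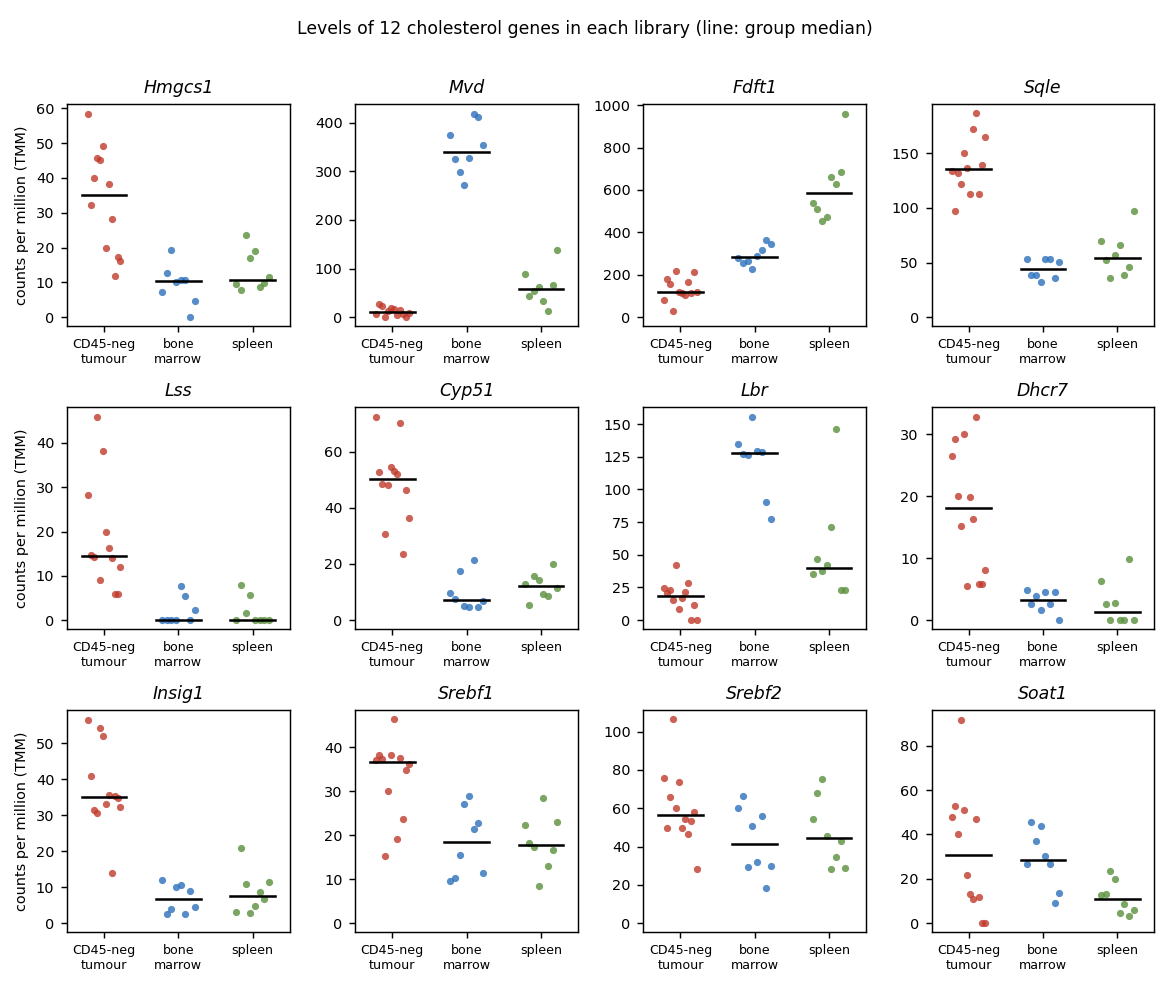
Level of 12 members in each library in CPM (TMM-scaled), with CD45-negative tumour cells on the left, bone marrow in the middle and spleen on the right of each panel; each point is a library and the line is the group median. Cyp51 lies above both organs in all tumour libraries (23.6 to 72.4), Fdft1 lies below both (30.5 to 220), and Mvd stands high in bone marrow (272 to 417).

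Among the SREBP factors and regulators, 3 of 5 were higher in tumour cells than in bone marrow and 2 of 5 higher than in spleen, with none lower, without the filter. Of all genes, 18.8% were called higher against bone marrow and 14.3% against spleen. Insig1, the Scap anchor whose own gene is a target of SREBP, had 14.0, 35.1 and 56.5 CPM in tumour cells, against 2.55, 6.81 and 12 CPM in bone marrow and 2.84, 7.62 and 20.9 CPM in spleen. Every tumour library was above every bone marrow library, and the lowest tumour library lay within the spleen range. With the filter the log2 fold change was 2.35 (SE 0.29, adjusted p = 3.63e-09) over bone marrow and 1.89 (SE 0.32, adjusted p = 8.47e-06) over spleen. Without it the values were 2.39 (SE 0.31, adjusted p = 3.08e-13) and 2.15 (SE 0.37, adjusted p = 1.15e-07). No other gene's exons lie opposite Insig1. Insig2 was higher than in bone marrow (1.89, SE 0.45, adjusted p = 0.000121) and missed the threshold against spleen (1.01, SE 0.45, adjusted p = 0.0702), both without the filter.

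Srebf1 had 15.3, 36.6 and 46.5 CPM in tumour cells, against 9.63, 18.5 and 29.0 CPM in bone marrow and 8.52, 17.8 and 28.4 CPM in spleen. Its ranges overlapped in all pairs. The log2 fold change was 0.78 (SE 0.24, adjusted p = 0.00325) over bone marrow with the filter. Without the filter it was 0.82 (SE 0.27, adjusted p = 0.00627) over bone marrow and 0.99 (SE 0.33, adjusted p = 0.0107) over spleen. Srebf2 had 28.2, 56.3 and 107 CPM in tumour cells, against 18.1, 41.3 and 66.2 CPM in bone marrow and 28.4, 44.2 and 75.2 CPM in spleen. Its log2 fold changes of 0.38 (SE 0.22, adjusted p = 0.109) and 0.07 (SE 0.24, adjusted p = 0.803) missed the threshold. Over bone marrow Srebf2 passed it with all 28 libraries in 1 fit (0.50, adjusted p just below the threshold) and with only genes that lack opposite exons (0.48, adjusted p = 0.0231). Scap was called in no comparison, with 0.37 (SE 0.30) over bone marrow and 0.73 (SE 0.37) over spleen.

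In sterol storage and export, Soat1 (chr1:156424525-156474331, minus strand), which esterifies cholesterol, had 0, 31.0 and 91.5 CPM in tumour cells, against 9.07, 28.6 and 45.8 CPM in bone marrow and 3.31, 10.7 and 23.5 CPM in spleen. The tumour libraries spread beyond both organs, and 2 of the 12 had 0 counts. These were tumour libraries 11 and 12, where the mt-Nd6 ratio was highest in the group (49.4 and 35.3). A link of that ratio with the Soat1 values was not tested. Soat1 did not differ from bone marrow beyond the spread of its libraries (-0.04, SE 0.35, adjusted p = 0.931). Without the filter it was higher than in spleen (1.29, SE 0.37, adjusted p = 0.00226). Abca1, the cholesterol exporter controlled by LXR, had 7 counts in all in tumour cells, 19 in bone marrow and 50 in spleen. It fell by 2.83 (SE 0.55, adjusted p = 3.24e-06) in tumour cells relative to spleen and by 1.66 (SE 0.46, adjusted p = 0.00268) in bone marrow relative to spleen, both without the filter. Stard4, a cytosolic sterol carrier, was called in no comparison (-0.00, SE 0.36, over bone marrow and 0.49, SE 0.44, over spleen).

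Bone marrow and spleen differed in 5 of 27 members without the filter, a share near the 20.8% of all genes called. Of these, Mvd, Lbr and Soat1 were higher in bone marrow and Fdft1 and Abca1 lower, which is 3 and 2 of 27, where 8.42% and 12.4% of 22736 genes were called higher and lower. With the filter, Mvd and Lbr were higher and Fdft1 lower among 5 members tested, where 20.1% and 17.6% of 4239 genes were called higher and lower and 37.7% in either direction. All 3 of these members changed at least 2-fold, against 12.6% and 9.39% of genes called higher and lower by that much. Without the 3 spleen libraries that stood apart, 3 were higher and 1 lower of 6 tested with the filter. In that fit 1335 and 1263 of 5291 genes were called higher and lower. Libraries of Mvd and of Fdft1 did not overlap between the organs, and 4.16% of all genes without the filter had no overlap. For CD45-negative tumour cells and bone marrow the members without overlap were 7 of 27 (Mvd, Fdft1, Sqle, Cyp51, Lbr, Dhcr7 and Insig1), against 11.9% of all genes, and for CD45-negative tumour cells and spleen they were 2 of 27 (Fdft1 and Cyp51), against 6.89%. These members were the same without the shallowest tumour library.

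Other genes of the same pathways were read from lists of related function. Of 15 fatty acid genes linked to SREBP1, all tested without the filter, 10 were higher and 1 lower in tumour cells than in bone marrow, where 18.8% and 22.8% of all genes were called. Against spleen 8 were higher and 1 lower, where 14.3% and 20.7% of all genes were called. Scd2, a desaturase, had 145, 292 and 519 CPM in tumour cells, against 4.81, 13.5 and 41.2 CPM in bone marrow and 14.2, 24.5 and 43.1 CPM in spleen, with no overlap. Its log2 fold changes with the filter were 3.83 (SE 0.29) and 3.41 (SE 0.30). Fasn, fatty acid synthase, had 2.93 (SE 0.26) over bone marrow and 2.22 (SE 0.30) over spleen. Of 12 genes of uptake and lysosomal transport, 1 was higher and 4 were lower in tumour cells than in bone marrow without the filter, and 1 was higher and 2 were lower than in spleen, where the same shares of all genes were called as for the fatty acid list. With the filter, 2 of 4 were lower than in bone marrow and 4 of 4 lower than in spleen, where 38.4% and 33.2% of genes were called lower. A gene that passes the filter through only its higher group had to differ, so these 4 are not a sample of the 12. Among the lower genes was Npc1, which exports cholesterol from lysosomes (-1.37, SE 0.17, and -1.56, SE 0.21). Of 10 LXR and oxysterol genes, 8 were tested without the filter against bone marrow, and 2 were higher and 4 lower. Against spleen 9 were tested, and 0 were higher and 5 lower. The shares of all genes called higher and lower were 18.8% and 22.8% against bone marrow and 14.3% and 20.7% against spleen. Apoe was higher in tumour cells than in bone marrow (1.03, SE 0.16) and lower than in spleen (-1.58, SE 0.16), and Nr1h2 was lower than in bone marrow (-1.61, SE 0.21). Genes of the response to dissociation and stress summed to 76.4 to 274 CPM in tumour cells, 4.53 to 35.6 CPM in bone marrow and 8.61 to 65.3 CPM in spleen, and their part in these results was not tested.

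Between QPCTL-KO and QPCTL-WT CD45-negative tumour cells, the authors' deposited table gave negative log2 fold changes for 21 of the 24 members it lists. Idi1, Fdps and Abca1 are not among its 11340 genes. The table does not state which genotype was subtracted, so a sign has no named direction. The member median in the authors' deposited table was -0.60, against -0.14 over all genes, and 87.5% of members were negative, against 58.5% of all genes. Other lists had negative medians in the authors' deposited table too: -0.69 over 7 melanoma and pigment markers, of which 2 were called negative, -0.51 over 13 fatty acid genes, -0.46 over 5 genes of dissociation and stress, and -0.42 over 8 proliferation markers. Their part in the values of the members was not tested, and the shift is not shown to be particular to the members. At adjusted p below 0.05 the authors' deposited table called 1 of these members, against 0.644% of all genes, and 0.317% with a negative sign. An unadjusted p below 0.05 was listed in the authors' deposited table for Hmgcs1, Msmo1, Insig1 and Soat1, which is 4 of 24, and for 16.8% of all genes.

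Soat1 was the called member, with a log2 fold change of -1.63, a mean log2 CPM of 5.19 and adjusted p = 0.0349 by the authors' deposited table. Next by p in the authors' deposited table were Hmgcs1 (-0.97, adjusted p = 0.112), Msmo1 (-1.18, adjusted p = 0.173) and Insig1 (-0.62, adjusted p = 0.275). The positive members in the authors' deposited table were Sqle (0.18, adjusted p = 0.684), Tm7sf2 (0.23, adjusted p = 0.885) and Scap (0.08, adjusted p = 0.933). The members with the highest mean level, Fdft1 and Sqle (7.25 and 7.22 log2 CPM), had -0.16 and 0.18 in the authors' deposited table. The authors' deposited table had -0.15 for Srebf1 (adjusted p = 0.832) and -0.46 for Srebf2 (adjusted p = 0.357), the transcription factor genes. By role, medians in the authors' deposited table were -0.97 over 5 genes of the first part of the pathway, -0.55 over 12 genes of squalene and sterol synthesis, -0.46 over 5 SREBP factors and regulators, and -0.99 over 2 genes of transport and storage.

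The sign of a gene in the authors' deposited table went with the opposite strand. Genes without opposite-strand exons were negative in 73.8% of 6259 cases with a median of -0.34, and the others were negative in 39.7% of 5081 cases with a median of 0.15. Of members without such exons, 15 of 17 were negative with a median of -0.62, and of members with them, 6 of 7 were negative with a median of -0.24, all in the authors' deposited table. In the authors' deposited table, Hmgcs1 (-0.97), Lss (-0.68), Cyp51 (-0.24) and Lbr (-0.73) had opposite-strand genes with positive values. Those genes were, in the same order, Gm48342 (0.29), 4930483K19Rik (0.35), Akap9 (0.38) and Dnah14 (0.35). Signs matched there for Fdft1 (-0.16, Ctsb -0.82), Srebf1 (-0.15, Rai1 -0.37) and Scap (0.08, 5830462I19Rik 0.4). None of these members or opposite-strand genes was called at adjusted p below 0.05. The part of strand in the signs of the members was not tested. Related genes in the authors' deposited table included Scd2 (-0.79, adjusted p = 0.0194), the called gene of the fatty acid list. For Qpctl the authors' deposited table gave 0.69 (adjusted p = 0.494), which does not settle the direction.

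**Figure D5:**
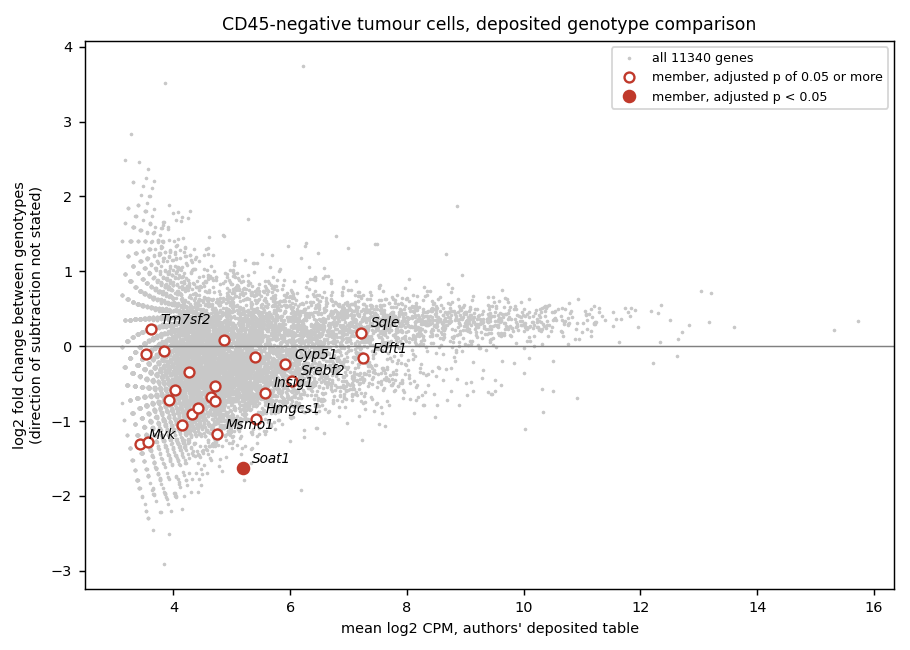
Log2 fold change between genotypes (vertical) against mean log2 CPM (horizontal) for all 11340 genes of the authors' deposited table in grey, with its 24 members of the list as circles, filled where adjusted p is below 0.05. Members lie mostly under 0, with a median of -0.60, and Soat1 at -1.63 is the filled circle.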

How the data were processed

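RNA was prepared from frozen organs or sorted cells and sequenced as paired reads of 50 bp, per the labels' protocols. HISAT2, edgeR, GRCm38 and mm10 are named in the submitters' processing notes; for the counting program, its strand setting and the annotation release, nothing is given in the sources used here. The authors deposited raw read counts per gene for 48 columns, of which 28 were used and 20 were not. The authors' deposited table lists for each gene, per the file headers, log2 fold change, mean log2 CPM, F (a score), p-value and adjusted p-value. Its mean log2 CPM differed from that of the 12 tumour columns by a median of 0.0678 over 11327 genes.

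Columns were assigned to tissues by name. Of 5 planned comparisons of counts, bone marrow over spleen was made; the 2 of CD45-negative tumour cells over each organ were added after the column names were seen. Counts were tested with edgeR 4.0.16 (R 4.3.3): TMM, filterByExpr, glmQLFit and glmQLFTest, Benjamini-Hochberg adjustment over all genes tested. The SE is the absolute log2 fold change over the square root of F. DESeq2 1.42.0, other scalings, other filters and fewer libraries were tried. Libraries that share a tissue are assumed to come from separate mice, which the column names do not show, so p-values measure the spread between these libraries. No 2 libraries were identical, and the lowest chi-square per degree of freedom between libraries of a group was 1.37.

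Exons and strands came from GENCODE M21, in which 98.8% of identifiers have identical start and end. On simulated counts, changes of 1 on the log2 scale were recovered in 89.4% of cases for CD45-negative tumour cells over bone marrow (4306 genes), 77.7% for the same cells over spleen (3653 genes) and 75.5% for bone marrow over spleen (4137 genes). Only genes that passed the filter were simulated, with changes in a small part of them. The rates do not describe members that were tested only without the filter. The members and lists were chosen with earlier results of these data known. Members called with the largest fold changes, up to 6 in each direction, are given with values, other members by range and count, and other genes only among the 3 of a list with the smallest p; Mvd's neighbour and the opposite-strand genes were named after their values were seen. The results of 1 list of related pathway genes are not reported here.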

Additional observations from a re-analysis of the deposited data

Results flagged for a closer look

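A single library stood far from the other 7 of its organ in 4 of 54 groups of values tested. Chance gives about 1 in 20 for normally distributed values, and that rate does not hold for groups near 0 counts, such as those of Mvk and Fdps. Fdft1 was 958 CPM (167 counts) in spleen library 8, and the next library had 682 CPM. Lbr was 146 CPM (34 counts) in spleen library 6, and the next had 71.1 CPM. Mvk was 14.2 CPM in spleen library 5 on 3 counts, and the next had 3.31 CPM. Fdps was 3.37 CPM in bone marrow library 4 on 2 counts, and the other 7 had 0. Spleen libraries 5, 6 and 8 are those that stood apart by erythroid markers or by correlation.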

How the results depend on the processing

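No member changed sign past the threshold in any comparison of counts under any alternative run: 148 of 148 alternative values kept their side of the threshold for bone marrow over spleen, 154 of 157 for CD45-negative tumour cells over bone marrow and 173 of 174 for CD45-negative tumour cells over spleen. The exceptions were Srebf2 over bone marrow, given above, and, without a filter under DESeq2, Acat2 over bone marrow (adjusted p = 0.0540) and Soat1 over spleen (adjusted p = 0.0847). Without the filter, 11 of 27 members were higher and 3 lower for tumour cells over bone marrow, with 9381 of 22509 genes called. For tumour cells over spleen 10 were higher and 4 lower, with 8101 of 23186 genes called. For bone marrow over spleen 3 were higher and 2 lower, with 4726 of 22736 genes called. With only genes that lack opposite exons, fewer genes were tested. For tumour cells over bone marrow, 3 of 5 members were higher and 1 lower, with 1345 of 1786 genes called (646 higher, 699 lower). For tumour cells over spleen, 2 of 3 were higher and 0 lower, with 852 of 1370 genes called (434 higher, 418 lower). For bone marrow over spleen, 1 of 3 was higher and 0 lower, with 699 of 1740 genes called (334 higher, 365 lower). For tumour cells over spleen, 5 of 9 members were higher and 3 lower with all 28 libraries in 1 fit. There 1718 and 1784 of 5143 genes were called higher and lower. With a minimum of 10 counts, 2 of 5 were higher and 2 lower, against 1155 and 1283 of 3906 genes. Without the 3 spleen libraries that stood apart, 5 of 10 were higher and 3 lower, against 1586 and 1696 of 4826 genes. Without these 3 libraries 2598 of 5291 genes were called for bone marrow over spleen. Total counts as library size moved the median of all genes for tumour cells over spleen to 0.18, against -0.03 with TMM. In the authors' deposited table, 292 genes were called at 0.1, 14 genes and 0 members at 0.01, 163 genes among those with mean log2 CPM no lower than 4, and 25 genes without opposite exons. The cause of these changes was not tested. The planned comparisons with lymph nodes and the fit of all 48 libraries were not run. No paired analysis was possible because no column could be tied to the animal number of a title. Low counts limit what can be read for the members with a median below 5 counts.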
